A study of Mus musculus with 30 samples.

Results

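The comparison described here set C57BL/6 (B6) mice fed an iron-enriched diet against B6 mice fed an iron-deficient diet, the full span of dietary iron that the study covered in this strain. Its members were all arrays whose titles give that strain and either diet, which made 5 enriched and 5 deficient livers, 10 of the 30 arrays of the study. Iron amounted to 8.3 g per kg of enriched diet and to less than 3 mg per kg of deficient diet. Another 5 B6 mice received a balanced diet of 200 mg per kg and took no part in the test of the 2 extremes, and the same 3 diets were fed to 15 mice of a second inbred strain, DBA/2 (D2). No allele or agent other than strain and diet appears in the labels, and every array carries its own animal code. Whole liver was profiled, with total RNA of 1 mouse per array amplified, labelled with Cy3 and hybridised to a one-colour Agilent 4x44K whole mouse genome array. Neither the age or sex of the mice nor the feeding time is given in the sources used here.

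Body iron is kept in range by hepcidin, a peptide hormone made by hepatocytes that binds the iron exporter ferroportin on gut and macrophage cells and causes its destruction, so that less iron enters the blood. Hepatocytes switch on the hepcidin gene when bone morphogenetic proteins (BMPs), BMP6 above all, bind a receptor complex that includes the co-receptor hemojuvelin, and receptor-activated Smad proteins then enter the nucleus. Inside cells, iron regulatory proteins stabilise the transferrin receptor transcript and hold back ferritin translation when iron is scarce. The study's title names Bmp6, Smad7, Id1 and Atoh8 as genes under the control of iron stores.

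Hamp encodes hepcidin, and Hamp2 is its neighbouring paralog in the mouse. Since both moved further than any other tested gene, the 250 bases before their annotated starts are shown, with those of 3 BMP-responsive genes that also rose and hold the same motif, Id2, Id4 and Smad9. The sequences are RefSeq's, on build GRCm38.p6, written in the direction of the gene. Capitals mark the letters GGCGCC, the core of the BMP response motif described in hepcidin promoters, which reads the same on both strands. The windows are chr7:30944030-30944279 (minus strand) for Hamp, chr7:30924182-30924431 (minus) for Hamp2, chr12:25096093-25096342 (minus) for Id2, chr13:48260866-48261115 (plus) for Id4 and chr3:54755332-54755581 (plus) for Smad9.
Hamp: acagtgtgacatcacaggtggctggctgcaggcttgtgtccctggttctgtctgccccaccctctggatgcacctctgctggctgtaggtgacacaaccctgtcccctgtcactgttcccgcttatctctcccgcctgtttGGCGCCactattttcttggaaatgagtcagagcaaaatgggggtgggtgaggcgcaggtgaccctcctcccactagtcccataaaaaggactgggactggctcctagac
Hamp2: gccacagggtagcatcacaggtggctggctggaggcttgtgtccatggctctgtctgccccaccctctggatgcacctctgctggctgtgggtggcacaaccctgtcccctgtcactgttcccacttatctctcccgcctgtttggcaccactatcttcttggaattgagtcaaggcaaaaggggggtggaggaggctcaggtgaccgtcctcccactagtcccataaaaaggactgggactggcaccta
Id2: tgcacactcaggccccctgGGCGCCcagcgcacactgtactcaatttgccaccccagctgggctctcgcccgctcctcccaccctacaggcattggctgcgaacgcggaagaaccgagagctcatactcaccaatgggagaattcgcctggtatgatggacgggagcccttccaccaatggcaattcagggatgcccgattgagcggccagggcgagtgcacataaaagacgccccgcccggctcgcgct
Id4: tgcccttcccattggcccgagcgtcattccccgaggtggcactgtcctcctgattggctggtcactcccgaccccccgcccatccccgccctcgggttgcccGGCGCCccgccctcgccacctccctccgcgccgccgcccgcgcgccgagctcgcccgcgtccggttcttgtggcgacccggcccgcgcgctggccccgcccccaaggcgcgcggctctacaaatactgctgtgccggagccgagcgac
Smad9: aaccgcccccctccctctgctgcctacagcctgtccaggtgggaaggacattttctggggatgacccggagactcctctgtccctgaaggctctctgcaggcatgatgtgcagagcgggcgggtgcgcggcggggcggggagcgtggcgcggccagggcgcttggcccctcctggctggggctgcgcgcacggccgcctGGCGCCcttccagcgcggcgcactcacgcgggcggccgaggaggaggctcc
The motif began 109 bases before the start in Hamp, 231 in Id2, 148 in Id4 and 51 in Smad9. The Hamp and Hamp2 windows were alike, with 227 identical and 20 mismatched bases and 6 gap positions in a global alignment. Hamp2 differed from Hamp within the motif by G4A, with positions counted from 1 at the motif's 5′ end and the Hamp base given first, so its window holds no GGCGCC. Of all 32851 promoter windows of this length in the table, 9.59% held the motif on either strand, against 4 of the 8 windows found for the 11 hepcidin genes, title genes and BMP targets that rose, 19.8% of the 242 windows of all genes that rose and 14.04% of the 235 of all genes that fell. Bmp6, Id3 and Atoh8 had windows without it, and Smad7, Id1 and Bambi were not in the table. Such matches describe the letters of a window.

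Between 67.8% and 77.3% of gene spots stood well above background on the 10 arrays, with means of 72.7% ± 3.74 in enriched and 72.8% ± 3.66 in deficient livers (SD, n = 5 each), and no gene spot was saturated. Pearson correlations between arrays, across genes, ran from 0.984 to 0.994 within a diet and from 0.979 to 0.992 between the diets. Scan day, recorded in the files, was unevenly spread: 1 enriched and 3 deficient arrays were scanned on day 2, and 4 enriched and 2 deficient arrays on day 3. The first principal component of the 10 arrays (29.9% of the variance) parted the scan days, with deficient mouse 2 the day 3 array nearest to those of day 2. The next component (20.6%) parted the diets. Hepatocyte markers were among the brightest genes, and 8 of the 9 tested did not pass; Apoa1, the main protein of HDL, was the exception (limma, log2 -0.36, SE 0.0742, adjusted p = 0.0347), and it did not pass with scan day as a block (adjusted p = 0.0759). The number of arrays limits the precision.

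Of 20184 tested genes, 522 passed at an adjusted p under 0.05 (limma, Benjamini-Hochberg), which is 2.59% of them. In enriched relative to deficient livers 265 genes rose (1.31%) and 257 fell (1.27%), and 78 of the rises and 43 of the falls were at least 2-fold (0.599% of tested genes together). The 5 enriched and 5 deficient arrays did not overlap for 247 of the rises and 243 of the falls, while over all tested genes 3.23% lay wholly above and 2.74% wholly below (5.97% in all). At an unadjusted p under 0.05, 8.59% of tested genes were higher and 7.94% lower. These shares, and the 2.59% at the adjusted threshold, are the background for the list counts below. In a short list 0 passing genes is near that background. All log2 differences are enriched minus deficient, on normalized intensities, and the median over all tested genes was 0.02, with 54.2% of them positive. With scan day as a block 395 genes passed (244 higher, 151 lower), and 310 of the 522 were among them. Fitted within a day, 2 genes passed on day 2 and 18 on day 3. With 1 array left out the count was between 263 and 484, and it fell by more than 1.5 times without enriched mouse 1 (314), 3 (309), 4 (292) or 5 (320) or deficient mouse 2 (309), 4 (269) or 5 (263). Of the 76 named genes that passed, 46 passed with each of the 10 arrays left out in turn. The calls of Akr1c18, Apoa1, Bambi, Bdh1, Bmp2, Bmp4, Cp, Crp, Cyp1a1, Cyp1a2, Cyp2c54, Cyp2f2, Cyp3a13, Dnase1l3, Egfr, Elovl1, Emcn, Gsta4, Gstm1, Gys2, Hmox2, Lad1, Mup3, Ntf3, Oasl1, Pde6c, Reln, Slc38a5, Slco1a1 and Stab1 were lost without at least 1 array, and their largest adjusted p was between 0.0547 and 0.115.

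**Figure D1:**
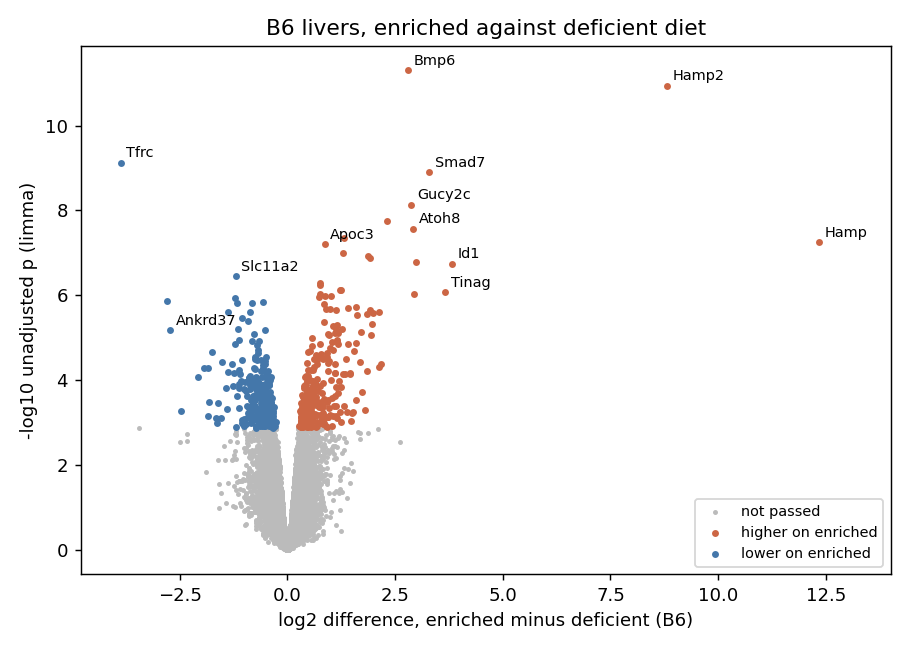
Each point is 1 of the 20184 tested genes, with the log2 difference between enriched and deficient B6 livers on the horizontal axis and the unadjusted p of limma, as -log10, on the vertical axis. The 265 genes higher on the enriched diet and the 257 lower ones are coloured, and Hamp (12.35) and Hamp2 (8.81) lie far to the right of all others.

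Hepcidin transcripts showed the widest span. Hamp had log2 intensities of 17.68, 17.66, 17.64, 17.84 and 17.85 in enriched livers, against 9.27, 4.03, 4.33, 4.97 and 4.30 in deficient livers. All enriched livers lay within a narrow band, whereas deficient mouse 1 stood more than 4 log2 units above the other deficient mice, and the groups were far apart. The difference came to 5226-fold (log2 12.35, SE 0.878, adjusted p = 0.000124), and within scan days 2 and 3 it was 13.12 and 11.10. Without deficient mouse 1 the log2 difference was 13.32 (adjusted p = 5.92e-10). The other deficient Hamp values lay close to the floor given to low signals, which limits how far they can spread downwards. The size of the Hamp difference is therefore inexact, and the smaller p without mouse 1 is no independent support. For Hamp2 the values were 16.42, 16.52, 15.86, 16.10 and 16.15 in enriched livers, against 8.11, 7.97, 7.03, 7.09 and 6.78 in deficient livers. That was 449-fold higher (log2 8.81, SE 0.266, adjusted p = 1.17e-07), again without overlap. Because the 2 transcripts are almost the same in sequence and a probe of one may also bind the other, which was not measured, the level of each alone is uncertain.

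Bmp6, the secreted ligand that drives hepcidin expression, had the smallest p of all tested genes. Its levels were 11.06, 11.02, 11.10, 10.90 and 11.20 in enriched livers, against 8.10, 8.24, 8.23, 8.37 and 8.31 in deficient livers. Both groups spanned less than 0.4 log2 units, and Bmp6 was 7.0-fold higher (log2 2.81, SE 0.0779, adjusted p = 9.89e-08; 2.53 at its other probe). In whole liver, a change in the number of cells of a type and a change in RNA per cell cannot be told apart. Id1, an inhibitor of differentiation and a direct BMP target, had 12.63, 14.18, 13.14, 12.77 and 12.76 in enriched livers, against 8.55, 9.36, 9.42, 9.66 and 9.37 in deficient livers. Enriched mouse 2 was the highest and deficient mouse 1 the lowest, and the difference was 14.2-fold (log2 3.83, SE 0.307, adjusted p = 0.000241). Smad7, the inhibitory Smad that feeds back on the pathway, stood at 11.86, 12.81, 12.20, 12.18 and 12.21 in enriched livers, against 9.00, 8.71, 9.14, 9.00 and 8.97 in deficient livers, a 9.78-fold rise (log2 3.29, SE 0.159, adjusted p = 6.33e-06). Atoh8, a basic helix-loop-helix transcription factor, stood at 11.49, 11.42, 10.91, 11.17 and 11.20 in enriched livers, against 8.81, 7.68, 8.30, 8.45 and 8.34 in deficient livers. No enriched array overlapped a deficient one for Atoh8, which was 7.58-fold higher (log2 2.92, SE 0.193, adjusted p = 7.73e-05). The study selected these 4 title genes from the very same livers, and their count is therefore not independent evidence. On slides 9 and 10, with 1 array of each diet, Bmp6 differed by 2.86 and 2.80, Smad7 by 3.49 and 3.18, Atoh8 by 3.23 and 2.37 and Id1 by 3.78 and 4.23.

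**Figure D2:**
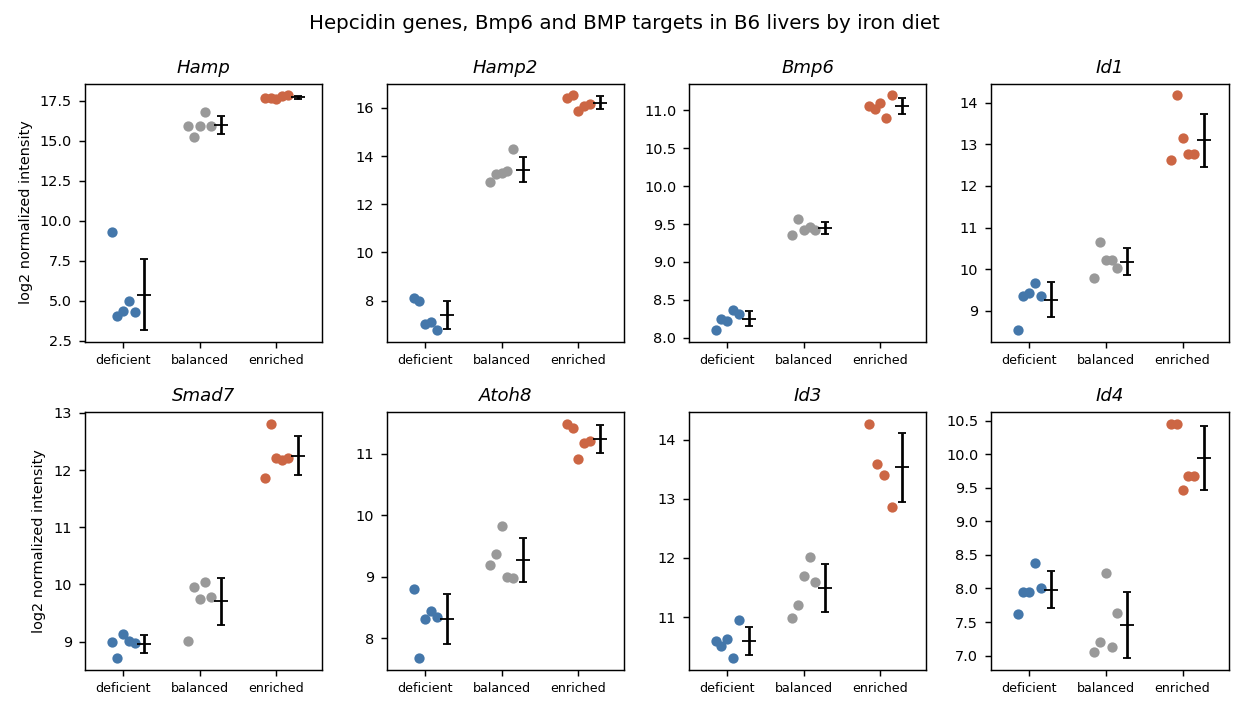
Normalized log2 intensity of 8 genes in each B6 liver, by diet in order of iron content, with 5 mice a diet (4 for Id3 on the enriched diet) and the mean ± SD beside the points; each panel has its own vertical scale. In every panel the enriched points lie above all deficient points, and for Hamp 1 deficient mouse stands apart at 9.27.

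Further ligands of the family and their antagonists moved in both directions. Of 19 tested, 2 rose, 2 fell and 15 did not pass, at a median of -0.17. Fst, which encodes follistatin, an activin antagonist, rose by 1.28 (SE 0.199, adjusted p = 0.0104), and Bmp2, made like Bmp6 by endothelial cells of the liver, rose by 0.65 (adjusted p = 0.0219). Inhbc, an activin subunit gene of hepatocytes, had 10.43, 10.41, 10.13, 10.10 and 10.58 in enriched livers, against 11.19, 11.53, 11.74, 11.27 and 11.63 in deficient livers, 2.21-fold lower without overlap (adjusted p = 0.00237). Bmp4 fell by 0.43 (adjusted p = 0.038, and adjusted p = 0.0853 with scan day as a block). Among the genes of the iron sensing complex and the BMP receptors 0 of 13 passed by limma (with a median of -0.04), and 2 had an unadjusted p under 0.05. With 2.59% of all tested genes passing, 0 of 13 is near the background. Hjv, the hemojuvelin co-receptor, was nearest at 0.27 (adjusted p = 0.0555). Tmprss6, the protease that cleaves hemojuvelin, gave 0.08 (adjusted p = 0.724).

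Among 20 other Smad genes and BMP targets 5 rose, 0 fell and 15 did not pass. Their median was -0.01 against 0.02 for all tested genes. The rises were Id3, Id4 and Id2, which like Id1 encode inhibitors of differentiation, the receptor-activated Smad9 and Bambi, a decoy receptor that dampens BMP and TGF-beta signals. Id3 was measured on 4 enriched arrays and had 14.28, 13.60, 13.41 and 12.87 in enriched livers, against 10.59, 10.50, 10.63, 10.30 and 10.95 in deficient livers, a 7.68-fold difference (log2 2.94, SE 0.254, adjusted p = 0.000813). Id4 had 10.45, 10.45, 9.46, 9.67 and 9.68 in enriched livers, against 7.61, 7.95, 7.95, 8.38 and 8.01 in deficient livers, 3.89-fold higher (log2 1.96, SE 0.223, adjusted p = 0.00194). Id2, by far the brightest of them, had 15.30, 15.72, 15.37, 15.52 and 15.48 in enriched livers, against 13.65, 13.65, 14.50, 13.72 and 13.92 in deficient livers, 3.01-fold higher (log2 1.59, SE 0.164, adjusted p = 0.00116). Smad9 rose by 0.92 (adjusted p = 0.00548), while its call was lost without normalization between arrays, and Bambi rose by 0.68 (adjusted p = 0.0345).

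Iron uptake genes changed through 2 members, and both fell. Tfrc, the transferrin receptor through which cells take up transferrin-bound iron, had 7.72, 8.30, 7.62, 8.21 and 8.06 in enriched livers, against 11.96, 11.57, 11.94, 12.26 and 11.53 in deficient livers. More than 3 log2 units lay between the groups, a 14.6-fold fall (log2 -3.87, SE 0.177, adjusted p = 5e-06), the largest of the 257 falls. Slc11a2 (DMT1), which carries ferrous iron out of endosomes, had 8.69, 8.80, 8.85, 9.04 and 8.92 in enriched livers, against 10.11, 9.89, 10.25, 10.18 and 9.83 in deficient livers, 2.29-fold lower without overlap (log2 -1.19, SE 0.103, adjusted p = 0.000446). Its 2 other probes gave -0.39 and -0.08, so the size of that fall depends on the probe. The other 11 of the 13 uptake genes tested did not pass, and the list's median was -0.02.

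Storage, export and regulation genes were mostly at similar levels. Of 15 tested, 2 rose, 1 fell and 12 did not pass, at a median of 0.07. Slc40a1, the iron exporter ferroportin, had 14.58, 14.55, 14.28, 14.26 and 14.20 in enriched livers, against 13.01, 13.53, 13.55, 13.35 and 13.70 in deficient livers, 1.92-fold higher (log2 0.94, SE 0.136, adjusted p = 0.00731), so that all enriched livers lay above all deficient ones. Ceruloplasmin (Cp), the plasma ferroxidase, rose by 0.55 (adjusted p = 0.029, and adjusted p = 0.0701 with scan day as a block). Flvcr2, a membrane transporter, was 1.69-fold lower (adjusted p = 0.00641). The ferritin subunit genes gave 0.02 for Fth1 (adjusted p = 0.917) and 0.44 for Ftl1 (adjusted p = 0.106), and Ncoa4, the receptor that delivers ferritin to lysosomes, gave 0.56 (adjusted p = 0.101).

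In heme metabolism, Alas1, the rate-limiting enzyme of heme synthesis in liver, was the one gene of 12 in its list that passed. It had 15.09, 15.85, 15.82, 16.07 and 16.05 in enriched livers, against 16.84, 16.93, 17.06, 16.81 and 16.91 in deficient livers, a 2.19-fold fall (log2 -1.13, SE 0.172, adjusted p = 0.00937; -1.20 at its other probe). Enriched mouse 1 was the lowest of all. Fech, the enzyme that inserts iron to form heme, gave 0.29 (adjusted p = 0.093). Hmox2, the constitutive heme oxygenase, rose by 0.29 (adjusted p = 0.0306), with adjusted p = 0.0638 when scan day was a block, and was the 1 of 10 genes of heme breakdown and scavenging that passed. Iron-sulfur cluster assembly genes gave 0 of 19 by limma (3 at an unadjusted p under 0.05) and a median of -0.01.

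The hypoxia pathway was measured through 20 genes, because the enzymes that mark hypoxia-inducible factors for destruction need iron. Here 2 fell, 0 rose and 18 did not pass, with a median of -0.13. Ankrd37, a known target of those factors, had 5.12, 5.73, 5.06, 5.35 and 4.73 in enriched livers, against 7.01, 7.64, 8.95, 7.94 and 8.06 in deficient livers, which made it 6.58-fold lower (log2 -2.72, SE 0.321, adjusted p = 0.00239). Pfkfb3, which makes an activator of glycolysis, was 1.81-fold lower (adjusted p = 0.0143). The 2 further probes of Pfkfb3 gave -0.27 and -0.25.

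**Figure D3:**
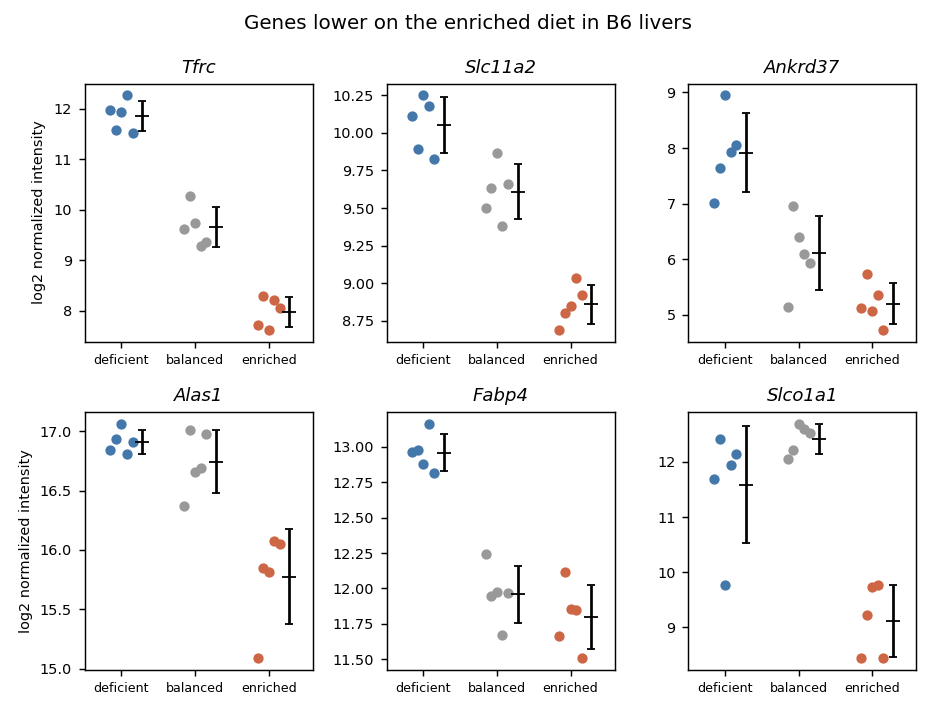
Normalized log2 intensity of 6 genes that fell on the enriched relative to the deficient diet, in each of 5 B6 livers per diet, by iron content, with the mean ± SD beside the points and a separate vertical scale in each panel. For Tfrc, Slc11a2, Ankrd37, Alas1 and Fabp4 all enriched points lie below all deficient points, and for Slco1a1 deficient mouse 3 lies at 9.76 among the enriched livers.

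Targets of NRF2, the regulator that answers oxidative and electrophilic stress, gave 7 rises, 0 falls and 21 genes that did not pass, of 28 tested. Their median was 0.20, with 20 differences positive and 8 negative. Well-known targets were among those that did not pass by limma. These were Nqo1 (0.72, adjusted p = 0.0642), Gclc (0.22), Hmox1 (0.01), Gclm (-0.07), Txnrd1 (-0.16) and Srxn1 (-0.16). Akr1b8, an aldo-keto reductase, had 12.46, 12.46, 12.24, 11.73 and 12.50 in enriched livers, against 10.27, 10.57, 10.39, 10.24 and 10.36 in deficient livers. That was 3.76-fold higher (log2 1.91, SE 0.148, adjusted p = 0.0002), with a gap of more than 1 log2 unit between the groups. Akr1b7, a related reductase, had 9.47, 9.24, 9.02, 9.22 and 9.06 in enriched livers, against 7.21, 6.62, 8.32, 6.35 and 6.83 in deficient livers, 4.4-fold higher (log2 2.14, SE 0.318, adjusted p = 0.00873); deficient mouse 3 was the highest of its group. The glutathione transferases Gsta2 (1.60, adjusted p = 0.00371), Gsta4 (0.95, adjusted p = 0.0367) and Gstm1 (0.54, adjusted p = 0.0465) rose, as did the exporters Abcc4 (1.14, adjusted p = 0.0036) and Abcc3 (0.45, adjusted p = 0.013). The calls of Gsta4 (adjusted p = 0.0823) and Gstm1 (adjusted p = 0.0567) were lost with scan day as a block. Promoter windows were found for 5 of the 7 genes that rose, 7 windows in all, and for neither Gsta4 nor Abcc3. The core of the antioxidant response element, TGACNNNGC, read on both strands, was in 2 of these windows, both of Abcc4. It was in 10.2% of all windows of that length. Metallothioneins and zinc transporters gave 0 of 10 by limma (4 at an unadjusted p under 0.05). Mt1, the most familiar of them, gave 1.26 (SE 0.542, adjusted p = 0.278), with enriched mouse 5 the lowest of its group at 14.37.

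Of 37 genes of xenobiotic metabolism by cytochromes P450, 4 rose, 3 fell and 30 did not pass, at a median of 0.03. The rises were Cyp1a1 (1.53, adjusted p = 0.032), Cyp3a25 (0.68, adjusted p = 0.00668), Cyp3a13 (0.46, adjusted p = 0.0372) and Cyp2f2 (0.42, adjusted p = 0.0403). Cyp1a1 was well above background on 5 enriched and 3 deficient arrays. The falls were Cyp1a2 (-0.83, adjusted p = 0.0372), Cyp2c54 (-0.68, adjusted p = 0.0293) and Cyp2c37 (-0.55, adjusted p = 0.0147). With scan day as a block 2 rises and 1 fall were left, the calls of Cyp3a13 (adjusted p = 0.08), Cyp2f2 (adjusted p = 0.0889), Cyp1a2 (adjusted p = 0.0754) and Cyp2c54 (adjusted p = 0.0545) being lost.

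**Figure D4:**
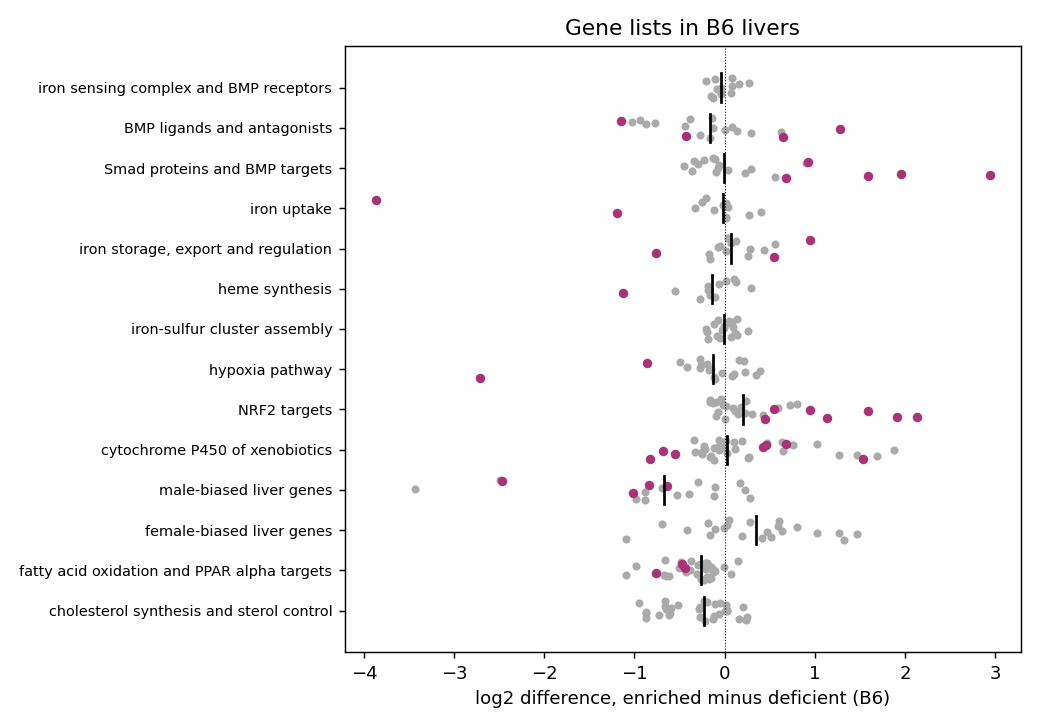
Every dot is a tested gene of 1 of 14 lists, placed by its log2 difference between enriched and deficient B6 livers; dark dots passed at an adjusted p under 0.05 and the black bar is the list's median. Medians lie between -0.67 for male-biased liver genes and 0.35 for female-biased ones. The iron sensing complex, iron-sulfur cluster, female-biased and cholesterol synthesis lists hold no dark dot, where 2.59% of all tested genes passed.

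Genes that male livers express more than female ones had the lowest median of the lists, -0.67, with 0 rises, 4 falls and 14 of 18 tested genes that did not pass. Slco1a1, an uptake transporter of organic anions, had 8.44, 9.22, 9.73, 9.76 and 8.44 in enriched livers, against 11.68, 12.42, 9.76, 11.94 and 12.14 in deficient livers. Deficient mouse 3 lay at the edge of the enriched range, and the difference was 5.54-fold (log2 -2.47, SE 0.496, adjusted p = 0.031). Egfr, the epidermal growth factor receptor, fell by 1.02 (adjusted p = 0.0477), the peroxisomal hydrolase gene Nudt7 by 0.84 (adjusted p = 0.0135) and the urinary protein gene Mup3 by 0.64 (adjusted p = 0.0443). With scan day as a block Egfr (adjusted p = 0.0817) and Mup3 (adjusted p = 0.0568) did not pass. Hsd3b5, a steroid-metabolising enzyme, missed the threshold (adjusted p = 0.0503), with a mean of 3.92, the floor, on all 5 enriched arrays and of 7.35 ± 1.97 on deficient ones. Female-biased genes had a median of 0.35, and 0 of 22 passed by limma (9 at an unadjusted p under 0.05). Cyp2b9, one of them, gave 1.26 (adjusted p = 0.103).

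Fatty acid oxidation genes leaned one way. Of 36 tested 34 had a negative difference, where 45.8% of all tested genes did, and the median was -0.26. Only 3 fell by the adjusted test, and 23 had an unadjusted p under 0.05 in that direction, against 7.94% of all tested genes. Among them Bdh1, which interconverts the 2 ketone bodies, fell by 0.76 (adjusted p = 0.0223) and Eci1, an enoyl-CoA isomerase of mitochondria, by 0.43 (adjusted p = 0.0133). With scan day as a block Eci1 passed (adjusted p = 0.0333) and Bdh1 did not (adjusted p = 0.0512). Cholesterol synthesis genes gave 0 of 31 by limma (3 at an unadjusted p under 0.05) and a median of -0.22. In fatty acid synthesis and storage 1 of 36 rose, the elongase Elovl1 (0.59, adjusted p = 0.0348), and the desaturase Scd1 gave 1.05 (adjusted p = 0.0849).

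Among lipoprotein genes 2 of 22 rose and 1, Apoa1, fell. Apoc3, an inhibitor of triglyceride clearance, had 16.99, 17.10, 17.07, 17.04 and 17.09 in enriched livers, against 16.26, 16.21, 16.19, 16.24 and 16.06 in deficient livers. Neither group spanned more than 0.25 log2 units, and the 1.82-fold difference had a small error (log2 0.86, SE 0.0621, adjusted p = 0.000124). In glucose output and glycogen, 1 of 23 rose and 1 fell: the serine dehydratase Sds was 2.16-fold higher (adjusted p = 0.0102) and the liver glycogen synthase Gys2 1.92-fold lower (adjusted p = 0.0197). Ppp1r3g, a glycogen-targeting phosphatase subunit, gave -2.34 (adjusted p = 0.0734), with deficient livers spread from 10.66 to 14.31. Of 27 acute phase genes, Hamp rose and C-reactive protein (Crp) fell by 0.58 (adjusted p = 0.041). In the interferon list 1 of 31 rose, Oasl1 (0.81, adjusted p = 0.0382), and its call was lost with scan day as a block (adjusted p = 0.0759). Respiratory chain (40), unfolded protein response (25), circadian clock (22), cell cycle (32), antioxidant enzyme (21) and bile acid (20) genes had 0 passing by limma, and an unadjusted p under 0.05 in 2, 2, 2, 12, 3 and 7 of them. Of all tested genes 2.59% passed, and at an unadjusted p under 0.05 8.59% were higher and 7.94% lower. The 12 cell cycle genes were 6 higher and 6 lower.

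Markers of other liver cell types were mixed. Of 15 sinusoidal endothelial markers 2 rose, the scavenger receptor Stab1 (0.66, adjusted p = 0.0197) and the nuclease gene Dnase1l3 (0.43, adjusted p = 0.029), and 2 fell, the VEGF receptor Flt1 (-0.61, adjusted p = 0.0169) and endomucin (Emcn; -0.37, adjusted p = 0.0321). Flt1 gave -1.11 to -0.02 at 3 other probes, and the call of Emcn was lost with scan day as a block (adjusted p = 0.0665). The mean log2 level of the endothelial markers ran from 11.37 to 11.49 over the enriched and from 11.22 to 11.44 over the deficient livers. Beside Bmp6, which these cells are known to make, their median difference was 0.13, and their part in its rise was not tested. Of 16 stellate cell and fibrosis genes 2 fell, Rgs5, a regulator of G protein signalling in pericytes (-0.90, adjusted p = 0.00179), and Reln, the secreted protein reelin (-0.59, adjusted p = 0.0234, and adjusted p = 0.0537 with scan day as a block). In 8 bile duct markers 1 rose, the keratin gene Krt19 (0.82, adjusted p = 0.0137). Markers of Kupffer cells (15), lymphocytes (13), neutrophils (4), exocrine pancreas (8) and skeletal muscle (7) gave 0 passing by limma, and an unadjusted p under 0.05 in 3, 1, 0, 0 and 2 of them, while erythroid markers gave Tfrc as the 1 of 7.

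Fabp4, a fatty acid binding protein of adipocytes and of capillary endothelium, was the 1 adipose marker of 5 that passed. It had 11.67, 12.12, 11.86, 11.85 and 11.51 in enriched livers, against 12.97, 12.98, 12.88, 13.16 and 12.81 in deficient livers, 2.23-fold lower without overlap (log2 -1.16, SE 0.116, adjusted p = 0.000988). Adipoq, which encodes the adipocyte hormone adiponectin, stood at 5.47, 8.02, 4.31, 3.92 and 3.92 in enriched livers, against 3.92, 3.92, 3.92, 3.92 and 3.92 in deficient livers, so enriched mouse 2 was high and the deficient mice were at the floor of 3.92 or close to it. The mean log2 level of the 5 adipose markers ran from 5.57 to 8.23 in enriched and from 5.73 to 6.20 in deficient livers. Without enriched mouse 2, 417 genes passed, 359 of them among the 522.

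The remaining large rises were in genes outside these lists. Tinag, which encodes a protein related to a basement membrane antigen of the kidney, had 8.82, 7.68, 6.39, 7.58 and 7.44 in enriched livers, against 3.92, 3.92, 3.92, 3.92 and 3.92 in deficient livers. It was well above background on all 5 enriched and on 0 deficient arrays, so the difference was at least 12.03-fold (adjusted p = 0.000798). Its probe thus passed the filter through the enriched arrays alone, and its deficient values did not vary. That p is therefore no independent support. Each fold given as "at least" sets the mean of the bright group against the lowest signals that counted as well above background. Gucy2c, the membrane guanylate cyclase that binds guanylin, had 10.69, 10.29, 10.87, 11.23 and 11.21 in enriched livers, against 8.05, 7.97, 7.87, 7.95 and 8.06 in deficient livers, 7.36-fold higher (log2 2.88, SE 0.166, adjusted p = 2.95e-05). Cpm, a membrane carboxypeptidase, stood at 9.096, 9.56, 9.80, 9.36 and 9.48 in enriched livers, against 7.17, 6.95, 7.01, 7.12 and 7.52 in deficient livers, 4.95-fold higher (log2 2.31, SE 0.146, adjusted p = 6.02e-05). Pkp1, a desmosomal plaque protein, averaged 7.22 ± 0.55 in enriched and 5.05 ± 0.561 in deficient livers (SD, n = 5 each; 4.5-fold, adjusted p = 0.0075). No other probe was kept for any of these 4 genes.

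Large falls were also found outside the lists. Lamb3, a laminin chain of basement membranes, averaged 6.80 ± 0.659 in enriched and 8.88 ± 0.492 in deficient livers (SD, n = 5 each), 4.25-fold lower (adjusted p = 0.0115). Kiss1, which encodes the peptide kisspeptin, averaged 7.11 ± 0.621 in enriched and 9.06 ± 0.367 in deficient livers, 3.85-fold lower (adjusted p = 0.00885). Fam25c averaged 10.37 ± 0.546 in enriched and 12.13 ± 0.208 in deficient livers, 3.38-fold lower (adjusted p = 0.00526). Ranbp3l, a Ran binding protein gene, was 3.57-fold lower (adjusted p = 0.00885) and well above background on 3 of 5 enriched and 5 of 5 deficient arrays. Ttyh1, a chloride channel gene of brain, fell by 1.53 (adjusted p = 0.00731), while its 3 other probes gave -0.77 to 0.07. For Lad1 (-1.83), Akr1c18 (-1.81), Pde6c (-1.66), Ntf3 (-1.63) and Slc38a5 (-1.60), with adjusted p of 0.0352, 0.0236, 0.0369, 0.0433 and 0.025, the call was lost with scan day as a block (adjusted p = 0.0822, 0.0533, 0.0555, 0.0849 and 0.0638). They are a protein of the skin's basement membrane, a steroid dehydrogenase, a phosphodiesterase of cone photoreceptors, the growth factor neurotrophin-3 and an amino acid transporter.

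The balanced B6 mice, which the test of the extremes did not use, show where along the diet range each gene moved. The mean of the balanced livers lay between the means of the extremes for 207 of the 265 genes that rose (78.1%) and 207 of the 257 that fell (80.5%), against 34.6% of all tested genes, a position that a wide gap between the extremes favours. For Hamp the deficient, balanced and enriched means were 5.38, 15.97 and 17.73, so that 85.7% of the range lay between the deficient and the balanced diet. Most deficient Hamp values lay close to the floor, so that share is inexact. For Hamp2 the share was 68.5%, for Bmp6 42.6%, for Atoh8 32.7%, for Id1 23.9% and for Smad7 22.5%. In these means the hepcidin genes covered most of their log2 range at the low end of dietary iron. The title genes covered more of theirs at the high end, with the least uneven split for Bmp6 (42.6%). No test of the title genes' shares is reported here, so this contrast rests on means alone. Among genes that fell the share was 56.8% for Tfrc, 66.6% for Ankrd37, 86.1% for Fabp4 and 14.6% for Alas1.

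A test of the balanced mean against the midpoint of the extremes, an orthogonal contrast fitted on the 15 B6 arrays, called 200 genes (0.991% of those tested). It called 126, 118 and 64 without balanced mouse 3, 4 or 5 and 119 without enriched mouse 5. Of the 522 genes 45 were among them. The balanced mean was below the midpoint for 22 that rose and above it for 15 that fell, which places the larger step between balanced and enriched, and lay the other way for 3 and 5. These counts include genes whose balanced mean lay outside both extremes, and those did not move steadily with dietary iron. Hamp was above the midpoint by 4.41 (adjusted p = 0.00988) and Hamp2 by 1.63 (adjusted p = 0.00988). The size for Hamp rests on deficient values close to the floor. The balanced mean minus the midpoint was -1.51 (adjusted p = 0.0083) for Id4, -1.21 (adjusted p = 0.0495) for Pkp1, -1.15 (adjusted p = 0.0279) for Fst and -1.09 (adjusted p = 0.004) for Akr1b8. For each of them the balanced mean lay below the deficient mean too, as for Id4 (7.45 against 7.98) and Fst (7.37 against 7.88). Tinag was also called, but it was well above background on 0 of 5 balanced and 0 of 5 deficient arrays, so its departure from the midpoint has no measured size. Among genes that fell, the balanced mean stood above the midpoint for Slco1a1 by 2.06 (adjusted p = 0.0217), Lad1 by 1.54 (adjusted p = 0.0287) and Mcm10, a DNA replication factor, by 1.22 (adjusted p = 0.004). For each of these genes the balanced mean lay above the deficient mean as well. With scan day as a block the midpoint calls of Pkp1 (adjusted p = 0.0995), Slco1a1 (adjusted p = 0.0562) and Lad1 (adjusted p = 0.0536) were lost. Leaving out single arrays of the 15 ended the call 12 times for Pkp1 (all but balanced mouse 1, enriched mouse 4 and deficient mouse 2), 7 for Lad1 (balanced mouse 1, 3, 4 or 5, enriched mouse 3 or 5 or deficient mouse 2), 3 for Slco1a1 (without balanced mouse 3, 4 or 5) and 2 for Fst (without balanced mouse 4 or 5). The Mcm10 levels were 11.83, 12.32, 11.998, 12.46 and 12.01 in enriched livers, against 13.28, 13.54, 13.28, 13.79 and 13.69 in deficient livers, 2.62-fold lower (adjusted p = 0.00122), and its balanced livers, at 13.50, 14.15, 13.95, 14.37 and 14.24, were mostly higher than both.

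The same diets were also fed to D2 mice. Of the 522 genes 426 (81.6%) had the same sign in D2 livers, against 57.9% of all tested genes. In D2 livers 740 genes passed (3.67%), and 154 passed in both strains in the same direction, 29.5% of the B6 calls and 20.8% of the D2 calls. The difference between the strains was itself called for 137 genes (0.679%), of which 78 were among the 522, and for 77 of those, chosen by their B6 values, the change was larger in B6 livers. For 45 of the 78 the differences had opposite signs in B6 and D2 livers. That count of 137 fell to between 57 and 89 without B6 enriched mouse 4 (89) or 5 (84), B6 deficient mouse 2 (79) or 5 (80), D2 enriched mouse 2 (65), 3 (59), 4 (66) or 5 (87), or D2 deficient mouse 1 (57), 2 (88) or 3 (88). Bmp6 differed by 2.81 in B6 and 1.73 in D2 livers (difference 1.08, adjusted p = 0.000248), and Smad7 by 3.29 in B6 and 1.68 in D2 livers (difference 1.61, adjusted p = 0.0147). For Hamp the differences were 12.35 in B6 and 12.003 in D2 livers (difference 0.35, adjusted p = 0.958), and for Tfrc -3.87 in B6 and -4.11 in D2 livers (difference 0.24, adjusted p = 0.794). Neither of those strain differences passed. Id4 gave 1.96 in B6 and -0.22 in D2 livers (difference 2.18, adjusted p = 0.000251) and Id3 2.94 in B6 and 0.93 in D2 livers (difference 2.01, adjusted p = 0.0423). Tinag (adjusted p = 0.000115) and Hr, a nuclear corepressor gene (adjusted p = 0.000248), were called too, at values bounded by the floor. Tinag was well above background on 5 enriched and 0 deficient B6 arrays, against 2 enriched and 0 deficient D2 arrays, and Hr on 5 enriched and 1 deficient B6 arrays, against 0 of either diet in D2. Plscr2, a phospholipid scramblase gene, gave -0.86 in B6 and 0.32 in D2 livers (difference -1.17, adjusted p = 0.000115). Bex2, a small adaptor protein gene, was called (adjusted p = 0.000251) but was well above background on 4 enriched and 2 deficient B6 arrays, against 2 enriched and 5 deficient D2 arrays, and all its B6 and enriched D2 values lay at or close to the floor.

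**Figure D5:**
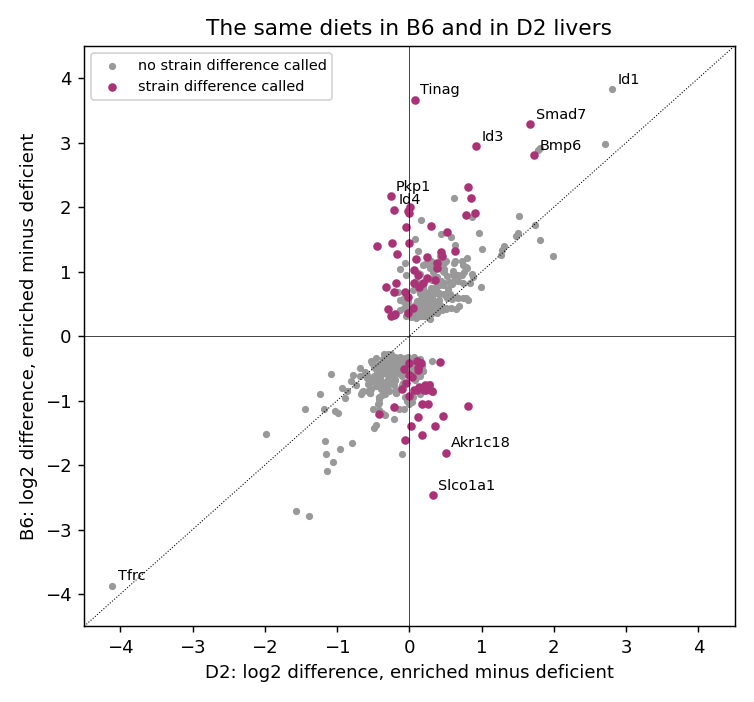
Each dot is 1 of the 522 genes called in B6 livers, with its log2 difference between enriched and deficient diets in B6 on the vertical and in D2 on the horizontal axis; coloured dots are the 78 whose strain difference was called, and Hamp and Hamp2 lie outside the axes. Tfrc lies near the dotted line of equal change, while Id4 and Pkp1 rose in B6 and lie near 0 or below it in D2.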

How the data were processed

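The deposited files are scanner output of 1 array each, and per the file headers they hold background-subtracted fluorescence intensity on a linear scale, read with Agilent Feature Extraction 9.1.3.1 (the labels name 9.5.1), not normalized between arrays. The deposited value table holds the same intensity, with column medians from 58.9 to 117 and a largest difference of 0. Control spots and outlier-marked spots were left out, and spots of 1 of 41174 probes were averaged. Signals were quantile normalized over 30 arrays, given a floor of 15.1 (each array's lowest signal well above background, as the median of all arrays) and log2 transformed. Probes well above background on at least 5 of the 10 arrays were kept (29832), and the brightest stood for each of 20184 genes. Genes were named from RefSeq (GRCm38.p6): 22951 probes by accession, 6659 by symbol, 3109 by synonym, and 8455 kept the file's name. Differences were tested with limma 3.58.1 in R 4.3.3 (lmFit, eBayes) on the 10 arrays, the strain difference on 20 and the midpoint on 15, with Benjamini-Hochberg adjustment at 0.05. Files were read with Python 3.11.15. The procedure was tested on simulated data.

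The members, the 40 gene lists (713 of 749 genes tested) and the rule for named genes were chosen with earlier results of these data known. The rule took the 12 largest rises and 12 largest falls that passed without overlap of the groups (passing over names that are only a clone, transcript, predicted-gene or probe identifier), the title and hepcidin genes, up to 4 members of each list by adjusted p and further members that passed or are known components, the 5 smallest adjusted p of the strain difference and the 5 largest departures of the balanced mean each way, with the same exception for names. Some genes that these lists hold are not reported here. Alternatives covered normalization, background, filter, floor, probe choice, arrays in the fit, scan day, slide, a plain test without moderated variances and leaving out each array. Replicate numbers follow accession order and pair no samples. Per the series' text, the authors' own test was a permutation analysis of variance (R/MAANOVA), not run here.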

Additional observations from a re-analysis of the deposited data

Results flagged for a closer look

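In 15 of 265 groups of 5 values of the named genes, the most extreme B6 mouse stood apart from the other 4 of its diet, and chance gives about 1 in 20. Among enriched livers these were Alas1 in mouse 1 (15.09), Emcn in mouse 3 (10.06) and Mt1 in mouse 5 (14.37), each the lowest. Deficient mouse 1 was highest for Hamp (9.27) and lowest for Id1 (8.55) and Reln (11.59), and deficient mouse 3 was lowest for Slco1a1 (9.76) and Mup3 (17.76). Deficient mouse 2 was highest for Bex2 (4.37) and deficient mouse 5 for Fth1 (18.21). In balanced livers mouse 1 was highest for Adipoq (8.02) and lowest for Smad7 (9.00), mouse 3 was highest for Hr (5.90), mouse 5 for Bex2 (3.97), and mouse 4 was lowest for Oasl1 (9.13).

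The difference between enriched and deficient livers itself differed between B6 and D2 mice for 137 genes (limma, adjusted p under 0.05). Among named genes the B6 minus D2 value was positive for Tinag (3.59), Pkp1 (2.43), Id4 (2.18), Id3 (2.01), Hr (1.91), Smad7 (1.61), Cpm (1.497), Fst (1.45), Bex2 (1.44), Bmp6 (1.08), Akr1b8 (0.999), Bambi (0.89), Krt19 (0.76), Cyp3a25 (0.74) and Apoc3 (0.51). It was negative for Slco1a1 (-2.79), Akr1c18 (-2.32), Slc38a5 (-1.54), Mcm10 (-1.42), Plscr2 (-1.17), Nudt7 (-1.07) and Cyp1a2 (-1.04). For Tinag, Hr, Bex2 and Slc38a5 at least 1 of the 4 groups was well above background on 2 or fewer of its 5 arrays, so these values depend on the floor and are no exact sizes.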

How the results depend on the processing

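The main count of 522 genes was 324 without normalization between arrays (38.6% higher, against 50.8% in the main setting), 1175 with all 30 arrays in the fit, and 2 and 18 within scan days 2 and 3. Blocking by scan day left 395 calls, 61.8% of them higher. Leaving out single arrays gave 263 to 484. The midpoint count of 200 was 306 with normexp background correction, 643 with all 30 arrays and 498 with slide as a random block, and 64 to 184 with single arrays left out, while the higher share of its calls was 44.5% here, 25.2% without normalization and 59.3% without balanced mouse 4. The strain difference count of 137 was 49 without normalization (71.4% higher, against 52.6%) and 300 with slide as a random block, and 57 to 154 with single arrays left out. Bex2, which did not pass, was -0.047 within scan day 2. The causes were not tested, and the fits within a day or with 1 array left out also had fewer arrays. Of the 76 named genes that passed, 21 lost the call with scan day as a block and 1 with slide as a random block, and none changed sign in these alternatives. No paired analysis was possible because replicate numbers only follow accession order.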
